A study of Homo sapiens with 27 samples.

Results

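The genes described here are 10 genes of the insulin-like growth factor (IGF) system: the ligand IGF2, the receptors IGF1R, INSR and IGF2R, the receptor substrate IRS1, and the binding proteins IGFBP2, IGFBP3, IGFBP4, IGFBP5 and IGFBP6. They were chosen by name among the 60619 genes of the RNA-Seq count table, and each was found there by its Ensembl identifier. RNA was measured in MDA-MB-134VI (MM134) and SUM44PE (SUM44) cells, which are estrogen receptor-positive lines of human invasive lobular breast carcinoma, and in variants of both lines that had been kept without estrogen for 6 to 12 months until growth no longer needed it (long-term estrogen-deprived, LTED). Such variants model resistance to aromatase inhibitors, drugs that take estrogen away from a tumor, and the comparison asks what had changed in the cells that came through. There were 9 groups with 3 libraries each. The MM134 parental cells stood beside 4 variants of theirs, MM134 LTED-A, -B, -D and -E. In the other line, SUM44F parental cells stood beside SUM44 LTED-A and -B. The SUM44F cells had themselves been derived from SUM44PE cells by 3 months in medium with fetal bovine serum, and SUM44PE parental cells formed the ninth group. The parental cells went through 3 days of hormone deprivation in charcoal-stripped serum before collection, so the comparisons of variants set long against short deprivation. The study does not name SUM44PE cells in this step. Charcoal stripping also takes out other lipophilic compounds, so the deprivation is not of estrogen alone. Libraries of a group came from wells seeded in triplicate, so that p-values measure only the spread between wells, and each variant is 1 line that came up separately from the same parental culture.

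IGF1 and IGF2 bind the receptor tyrosine kinase IGF1R, and IGF2 and insulin bind INSR. Both receptors phosphorylate substrates such as IRS1, which dock phosphatidylinositol 3-kinase and so pass the growth and survival signal on, while IGF2R takes up IGF2 and delivers it to lysosomes. The IGFBPs hold IGFs outside the cell with high affinity, and proteases that cut them set the ligand free. In breast cancer cells with an active estrogen receptor, IGF1R and IRS1 are known to be induced by estrogen, and the IGF and estrogen pathways are known to reinforce each other.

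Library depth ran from 28583554 to 134882175 counts, with a median of 44018412. The difference between SUM44 LTED-A replicates 2 and 3 was smaller than sampling noise alone would give, so they were counted as 1 sample, which left 26 samples and n = 2 for that variant. The 8 markers of luminal epithelial breast cancer cells summed to between 6152 and 9344 CPM (counts scaled to the same total in each library) in every library. Markers of stroma stood out in 3 libraries. LUM, which encodes the fibroblast matrix protein lumican, had 2636 counts in SUM44F parental replicate 1, 86 in MM134 parental replicate 3 and 81 in MM134 LTED-D replicate 2, and at most 3 counts in any other library. The summed level of 10 stromal markers was 390 CPM in SUM44F parental replicate 1, 41.3 in MM134 parental replicate 3 and 28.9 in MM134 LTED-D replicate 2, against 6.14 to 27.7 in the other libraries. The endothelial list was also highest in SUM44F parental replicate 1, at 42 CPM against 1.55 to 32.5 in the libraries other than these 3, and the immune list, at 6.86 CPM, lay within the range of those libraries, 0.376 to 10.3. Fold changes of the 10 genes that rest on these 3 libraries are given below with and without them, where the gene was in both fits. Elsewhere such a library is named beside the value.

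Promoter sequence is shown for 3 of the genes: IRS1 and IGFBP4, which changed in every LTED variant, and IGFBP5, which fell in all 4 MM134 variants and was the highest of the 10 genes in SUM44. The 250 bases before the transcription start are written 5′ to 3′ along the gene, from RefSeq on GRCh38.p14. Capitals mark the GC box (GGGCGG) and the TATA box (TATAAA) on either strand. The IRS1 stretch lies at chr2:226799821-226800070 (minus strand), that of IGFBP4 at chr17:40443200-40443449 (plus strand) and that of IGFBP5 at chr2:216695550-216695799 (minus strand).
IRS1: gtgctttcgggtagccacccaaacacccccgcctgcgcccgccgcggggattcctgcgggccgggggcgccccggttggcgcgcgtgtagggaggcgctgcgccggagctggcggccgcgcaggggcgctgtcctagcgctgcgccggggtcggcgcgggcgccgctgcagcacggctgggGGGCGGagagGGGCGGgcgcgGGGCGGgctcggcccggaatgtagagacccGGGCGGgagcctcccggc
IGFBP4: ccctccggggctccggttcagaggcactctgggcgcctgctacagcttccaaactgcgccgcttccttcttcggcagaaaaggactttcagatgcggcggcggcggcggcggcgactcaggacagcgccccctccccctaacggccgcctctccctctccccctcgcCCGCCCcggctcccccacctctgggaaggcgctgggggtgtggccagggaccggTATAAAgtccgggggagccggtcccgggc
IGFBP5: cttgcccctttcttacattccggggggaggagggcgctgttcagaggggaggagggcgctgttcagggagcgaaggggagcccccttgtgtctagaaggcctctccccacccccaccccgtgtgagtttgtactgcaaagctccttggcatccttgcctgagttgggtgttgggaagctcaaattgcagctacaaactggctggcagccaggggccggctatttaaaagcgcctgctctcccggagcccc

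The IRS1 stretch held 4 GC boxes, starting at bases 182, 192, 203 and 233 of the printed sequence. The IGFBP4 stretch held 1 GC box at base 168 and a TATA box at base 222, and the IGFBP5 stretch held neither motif. Only the exact letters were searched, so variants of either motif were not counted. Over windows of 300 bases (250 before and 50 after the start) a GC box was in 45% of 35116 RefSeq promoters and a TATA box in 11.5%. The palindromic estrogen response element, searched on both strands with any 3 bases between its arms, was in 0.057% of all promoters and in none of the windows of the 9 genes that had one (IGF1R, IGF2R, INSR, IRS1, IGFBP2, IGFBP3, IGFBP4, IGFBP5 and IGFBP6), which says only that these letters were not in these windows. GC content was 79.3% for IRS1, 74% for IGFBP4 and 59% for IGFBP5, beside a median of 58.7% over all promoters.

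The gene with the highest level was a binding protein in every group, and another one in each line. Levels are given as CPM after scaling between samples (normalized CPM), and where genes are compared with each other, as normalized CPM per kb of exon. Per kb, IGFBP4 was the highest of the 10 genes in all 5 MM134 groups, at 28 ± 1.09 (SD, n = 3) in parental cells, and IGFBP5 was the highest in all 4 SUM44 groups, at 471 ± 52 (n = 3) in SUM44F cells. IGFBP5 was 41st of 56434 annotated genes by this scale in SUM44F cells and 9901st in MM134 parental cells. IRS1, the receptor substrate, ranked 5th of the 10 in MM134 parental cells and 7th in each of the 4 MM134 variants. IGFBP6 and IGF2 filled the last 2 places in every MM134 group. With the longest transcript as the length, 17 of 90 places in these orders moved, and both leading genes kept theirs.

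**Figure D1:**
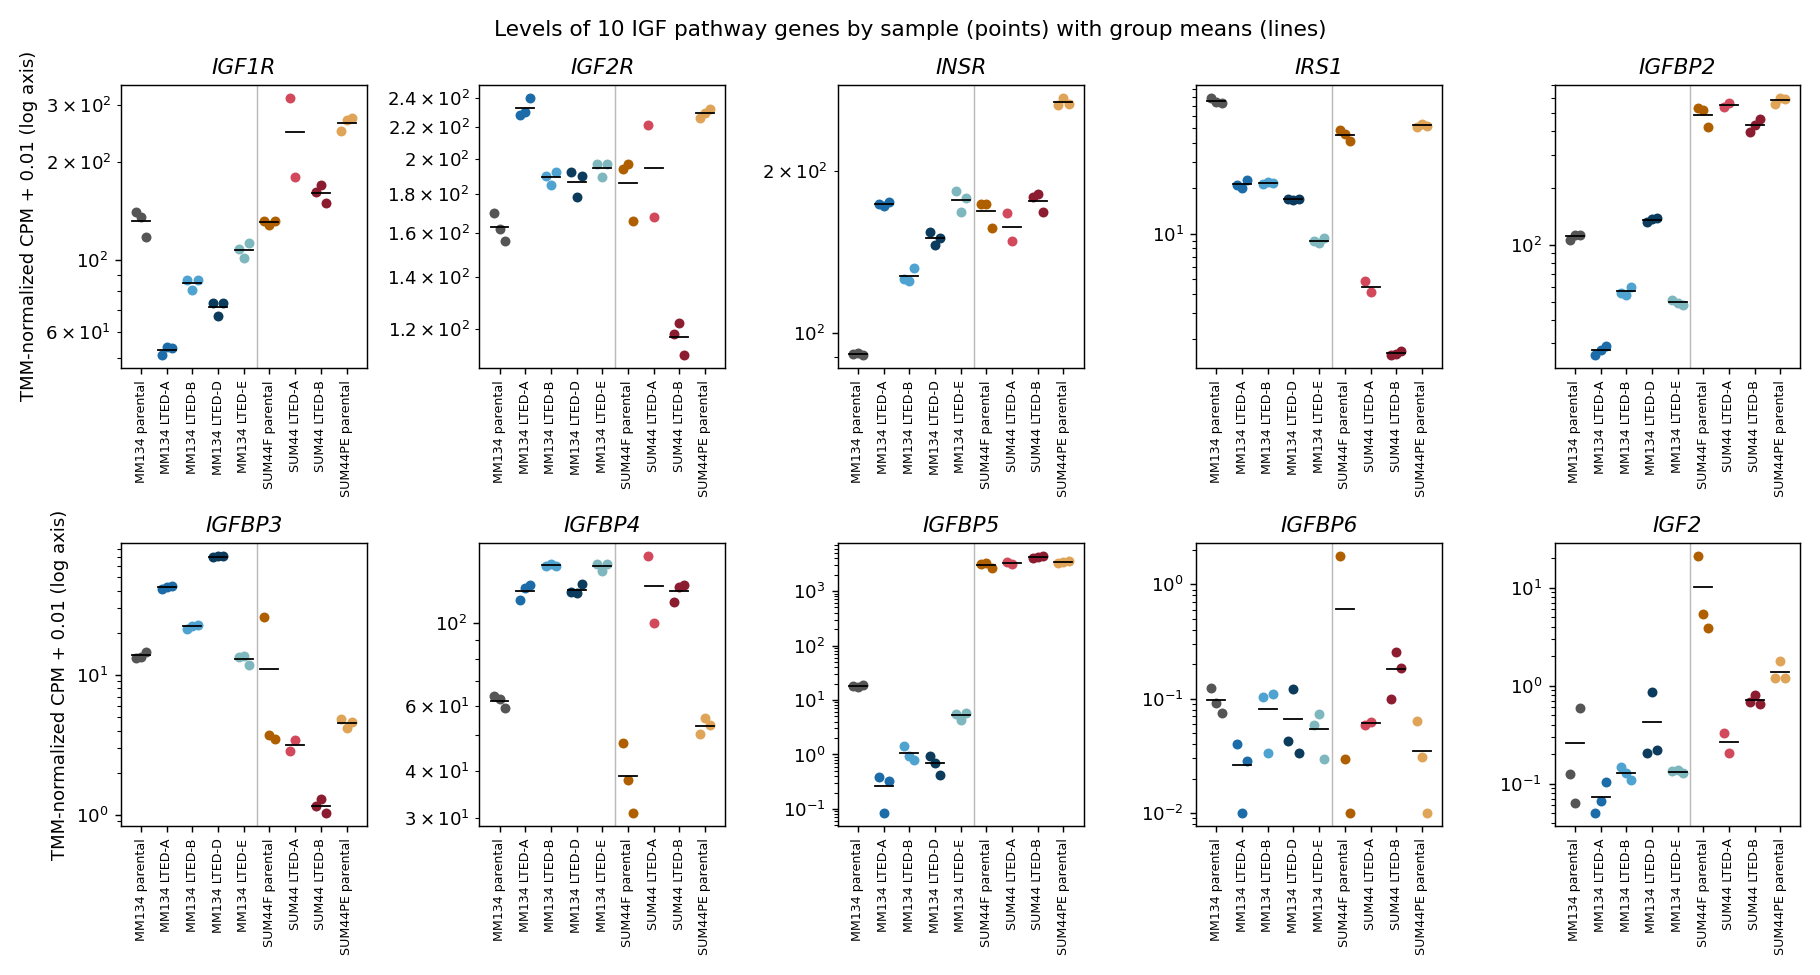
Normalized CPM of each gene (log axis, 0.01 added) in 26 samples, as points by group, with the group mean as a line. IRS1 was lower and IGFBP4 higher in all LTED groups than in the parental groups of the same line, while IGFBP5 fell in the MM134 variants and stayed at 2666 CPM or above in the SUM44 groups.

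A gene counted as differentially expressed (DE) past a 1.5-fold difference and below an adjusted p of 0.001 (edgeR quasi-likelihood test, two-sided, Benjamini-Hochberg over all genes tested). In MM134, 8 of the 10 genes had enough counts to be tested, since IGFBP6 and IGF2 did not pass the filter on low counts. Of these 8, 7 were DE in LTED-A, beside 20.3% of the 26061 genes tested, with 3 higher (background 10.5%) and 4 lower (9.82%). Variant LTED-B had 6, beside 15.9% of genes, with 2 higher (8.11%) and 4 lower (7.75%). LTED-D also had 6, beside 17.6%, with 3 higher (9.63%) and 3 lower (7.95%), and LTED-E had 5, beside 19%, with 2 higher (8.71%) and 3 lower (10.3%). All 10 genes entered the SUM44 tests. There LTED-A had 3 DE genes, beside 13.7% of 26834, with 1 higher (6.39%) and 2 lower (7.28%), and LTED-B had 4, beside 17.3%, with 1 higher (8.69%) and 3 lower (8.57%). Over the tested genes the median log2 fold change was -0.41, -0.20, 0.26 and -0.18 for MM134 LTED-A, -B, -D and -E, and -0.01 and -0.43 for SUM44 LTED-A and -B. The medians over all genes tested lay between -0.09 and 0.02. The 2 SUM44 medians include IGFBP6, whose sign turned without SUM44F parental replicate 1 (given below). Medians without that library are not given, so these 2 depend on it. The 4 MM134 comparisons share the same parental libraries, as do the 2 SUM44 comparisons, so their values are not independent of each other. In bulk RNA, fewer cells with a transcript and less of it per cell cannot be told apart.

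**Figure D2:**
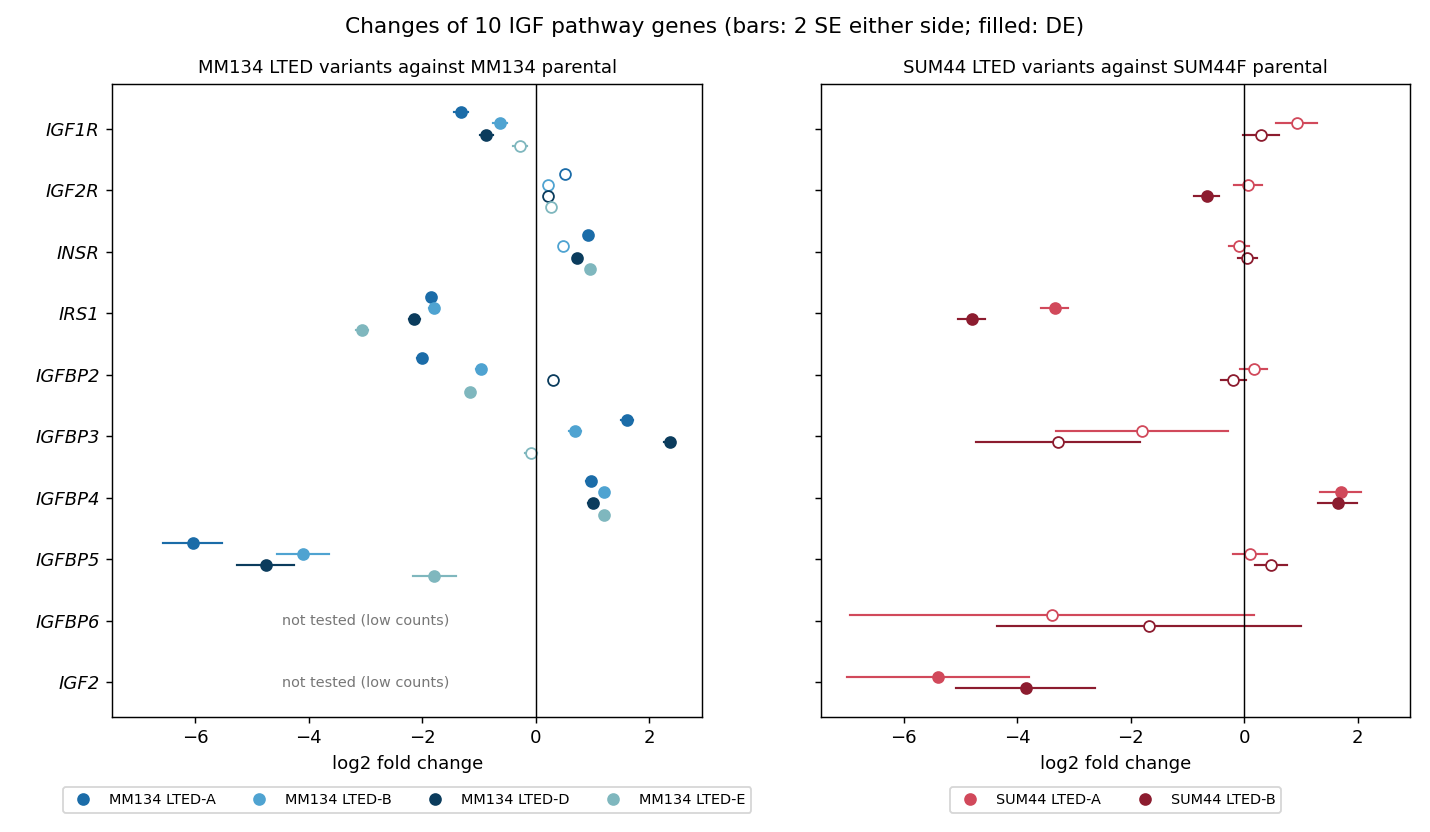
Log2 fold change of each gene in the 4 MM134 LTED variants (left) and the 2 SUM44 LTED variants (right) against the parental cells, with bars of 2 SE either side and filled points for DE genes. IRS1 lay below 0 and IGFBP4 above 0 in all 6 variants, both DE each time, and IGFBP5 ran from -6.04 to -1.79 in MM134 and from 0.11 to 0.47 in SUM44.

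IRS1 (ENSG00000169047; chr2:226731312-226799820, minus strand, hg38), the adaptor that carries the signal of both receptors to phosphatidylinositol 3-kinase, fell in all 6 variants. In MM134 parental cells it stood at 79.2, 74.2 and 72.6 normalized CPM. LTED-A samples had 20.9, 19.9 and 22.7, LTED-B 21.3, 21.8 and 21.5, LTED-D 17, 16.7 and 16.9, and LTED-E 8.97, 8.62 and 9.35 normalized CPM. Each sample of a variant was below every parental sample, and LTED-E was the lowest of the 4.

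Relative to parental cells, IRS1 changed on the log2 scale by -1.84 ± 0.04 (SE) in LTED-A, -1.80 ± 0.04 in LTED-B, -2.14 ± 0.05 in LTED-D and -3.06 ± 0.05 in LTED-E (n = 3 per group, edgeR adjusted p 4.33e-17, 1.46e-16, 1.99e-17 and 1.68e-19). LTED-E thus held 8.32-fold less IRS1 RNA than the parental cells. Against each other, LTED-A and LTED-B differed by -0.03 (2 SE either side, -0.12 to 0.06), while LTED-E was lower than LTED-A, LTED-B and LTED-D by 1.22, 1.25 and 0.91, each DE. LTED-D lay below LTED-A by 0.31 and below LTED-B by 0.34, which passed the p but not the fold.

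SUM44F samples held 48.2, 45.5 and 40.7 normalized CPM of IRS1. The 2 samples of SUM44 LTED-A (replicate 1, and the mean of replicates 2 and 3) held 4.84 and 4.07, and the LTED-B samples 1.57, 1.58 and 1.66. The 3 groups did not overlap. IRS1 was thereby 10.1-fold lower in LTED-A (log2 fold change -3.34 ± 0.12, edgeR adjusted p 1.55e-08) and 27.8-fold lower in LTED-B (-4.80 ± 0.12, edgeR adjusted p 6.25e-10), and LTED-A exceeded LTED-B by 1.46 ± 0.12 (edgeR adjusted p 1.11e-05). IRS1 was the 1 gene of the 10 that was DE between the SUM44 variants, where 7.42% of genes were.

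IGFBP4 (ENSG00000141753; chr17:40443450-40457725, plus strand, hg38), a binding protein known to hold IGFs away from their receptor, rose in all 6 variants. MM134 parental samples had 63.6, 62.4 and 59 normalized CPM. The MM134 variant samples ran from 115 in LTED-A to 144 in LTED-B and LTED-E, all above the parental ones. Log2 fold changes were 0.97, 1.21, 1.01 and 1.21 for LTED-A, -B, -D and -E, each ± 0.04 (SE, n = 3) with an edgeR adjusted p of at most 4.61e-14. Between any pair of MM134 variants IGFBP4 differed by at most 0.24 in size on the log2 scale, and no pair was DE.

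In SUM44F cells IGFBP4 stood at 47.5, 37.9 and 30.9 normalized CPM, a wider spread than in the MM134 groups. SUM44 LTED-A samples had 151 and 100, and LTED-B samples 114, 125 and 126. Both variants lay above all SUM44F samples and overlapped each other. IGFBP4 changed by a log2 fold of 1.70 ± 0.18 in LTED-A (3.25-fold, edgeR adjusted p 4.1e-05) and 1.65 ± 0.17 in LTED-B (3.14-fold, edgeR adjusted p 2.29e-05). Without SUM44F parental replicate 1 these were 1.79 and 1.83.

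IGFBP5 (ENSG00000115461; chr2:216672105-216695549, minus strand, hg38), a binding protein that also associates with the extracellular matrix, fell in all 4 MM134 variants, by more than any other of the 8 tested genes in LTED-A, -B and -D, while IRS1 fell further in LTED-E. Parental samples held 18.2, 17.5 and 19 normalized CPM. LTED-A samples held 0.371, 0.0743 and 0.316, LTED-B 1.42, 0.945 and 0.796, LTED-D 0.936, 0.702 and 0.418, and LTED-E 5.58, 4.26 and 5.83. No variant sample reached the parental range, and LTED-E kept the most.

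These levels rest on 585 to 650 counts in the MM134 parental libraries, 4 to 37 counts for LTED-A, 32 to 61 counts for LTED-B, 18 to 29 counts for LTED-D and 201 to 300 counts for LTED-E. For IGFBP5 these gave log2 fold changes of -6.04 ± 0.26 in LTED-A, -4.10 ± 0.23 in LTED-B, -4.76 ± 0.25 in LTED-D and -1.79 ± 0.19 in LTED-E (n = 3, edgeR adjusted p 4.61e-13, 2.97e-11, 1.17e-11 and 1.77e-07). Against LTED-E, the differences of LTED-A, -B and -D were -4.25, -2.31 and -2.97, each DE. LTED-A against LTED-B gave -1.94 (edgeR adjusted p 0.000158), a call that was lost without LTED-B replicate 1 (-1.66, adjusted p 0.00218). LTED-A against LTED-D (-1.28, adjusted p 0.0118) and LTED-B against LTED-D (0.66, adjusted p 0.124) did not pass the threshold.

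SUM44 cells held IGFBP5 at another order of magnitude. The SUM44F samples had 3171, 3303 and 2666 normalized CPM, LTED-A 3459 and 3090, LTED-B 4064, 4235 and 4389, and SUM44PE 3289, 3459 and 3484. SUM44 LTED-A overlapped the SUM44F range and LTED-B lay above it. Against SUM44F, IGFBP5 differed on the log2 scale by 0.11 ± 0.15 in LTED-A (2 SE either side, -0.20 to 0.41) and 0.47 ± 0.14 in LTED-B (0.19 to 0.75, edgeR adjusted p 0.0179), neither DE. MM134 parental cells lay 169-fold below SUM44F cells (log2 difference -7.40 ± 0.15, edgeR adjusted p 7.07e-21).

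IGFBP2 (ENSG00000115457; chr2:216632828-216664436, plus strand, hg38) is a binding protein often found at raised levels in tumors, and its gene ends 7668 bases from that of IGFBP5. Parental MM134 samples had 106, 113 and 113 normalized CPM. LTED-A had 26.1, 27.8 and 29.2, LTED-B 55.8, 54.1 and 59.6, LTED-E 51.1, 49 and 48.2, and LTED-D 132, 137 and 138. LTED-D thus lay above the parental samples and the other 3 variants below them.

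IGFBP2 changed by a log2 fold of -2.01 ± 0.04 in LTED-A, -0.97 ± 0.04 in LTED-B and -1.15 ± 0.04 in LTED-E (edgeR adjusted p 2.05e-17, 9.47e-13 and 5.21e-14). In LTED-D it was 0.31 ± 0.04, below the 1.5-fold minimum (adjusted p 4.7e-06). LTED-D exceeded LTED-A by 2.31, LTED-B by 1.27 and LTED-E by 1.46, each DE. In SUM44 the samples overlapped, with SUM44F at 532, 518 and 420, LTED-A at 536 and 565, and LTED-B at 394, 429 and 463 normalized CPM. Its log2 fold changes there, 0.17 (-0.07 to 0.41) and -0.19 (-0.41 to 0.02), were not DE.

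IGFBP3 (ENSG00000146674; chr7:45912245-45921874, minus strand, hg38), the main IGF carrier in blood, moved apart in the MM134 variants. Parental samples had 13.3, 13.5 and 14.6 normalized CPM. LTED-D had 69.3, 70.7 and 70.4, LTED-A 41.4, 42.4 and 42.9, LTED-B 21.2, 22.5 and 22.9, and LTED-E 13.5, 13.6 and 11.8. The first 3 of these variants lay above the parental range and LTED-E overlapped it.

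IGFBP3 rose by a log2 fold of 2.36 ± 0.05 in LTED-D, 1.61 ± 0.05 in LTED-A and 0.69 ± 0.05 in LTED-B (edgeR adjusted p 1.98e-17, 2.97e-15 and 2.26e-09). In LTED-E it was -0.08 (2 SE either side, -0.19 to 0.03). Each of the 6 pairs of MM134 variants was DE for IGFBP3, from 0.75 in size between LTED-A and LTED-D to 2.44 between LTED-D and LTED-E, and it was the only one of the 8 tested genes for which that held.

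For IGFBP3 in SUM44, 1 library set the result. SUM44F parental replicate 1, the library with the most LUM counts, held 26.1 normalized CPM, and the other SUM44F samples 3.71 and 3.47. SUM44 LTED-A held 2.84 and 3.44, LTED-B 1.14, 1.29 and 1.02, and SUM44PE 4.8, 4.18 and 4.61. LTED-B lay below every other SUM44 sample, and LTED-A below the SUM44F samples by little.

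With all libraries, the log2 fold change of IGFBP3 was -1.80 ± 0.76 in SUM44 LTED-A and -3.28 ± 0.72 in LTED-B (edgeR adjusted p 0.0915 and 0.00386), neither DE. Without SUM44F parental replicate 1 it was -0.11 ± 0.15 in LTED-A (adjusted p 0.579) and -1.65 ± 0.16 in LTED-B (adjusted p 2.16e-05), which then was DE, as was LTED-A against LTED-B (1.54 ± 0.15, adjusted p 3.12e-05). The part of other cells in the level of that library was not tested.

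IGFBP6 (ENSG00000167779; chr12:53097436-53102345, plus strand, hg38), which prefers IGF2 over IGF1, was near the detection floor. MM134 libraries had 0 to 4 counts. SUM44F parental replicate 1 had 81 counts and every other SUM44 library at most 16, the highest of them in LTED-B. Changes of IGFBP6 in SUM44 were not DE (-3.38 ± 1.78 in LTED-A and -1.67 ± 1.34 in LTED-B, edgeR adjusted p 0.172 and 0.335), and without that 1 library the sign turned (2.62 and 4.30, adjusted p 0.0666 and 0.00284), again not DE.

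Added together per kb of exon, the 5 binding protein genes came to 57.2 ± 0.558 normalized CPM per kb (SD, n = 3) in MM134 parental cells. The sum was 70.3 ± 3.16 in LTED-A, 81.7 ± 0.494 in LTED-B, 99.8 ± 2.21 in LTED-D and 78.4 ± 1.66 in LTED-E, and no variant sample was as low as a parental one. IGFBP4 took 48.9% of the sum in parental cells and 78.4%, 79.2%, 55.8% and 82% in variants A, B, D and E. The share of IGFBP2 went from 40.8% to 8.31%, 14.6%, 28.7% and 13.3%, and that of IGFBP5 from 4.93% to between 0.0564% and 1.03%. LTED-D kept the largest share of IGFBP2 and the largest of IGFBP3, 15.4%, among the variants. Sums and shares depend on the gene length used. With the longest transcript as length, IGFBP3 in LTED-D was at 26.7 per kb in place of 15.3, while IGFBP4 stayed at 55.7.

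In the SUM44 groups IGFBP5 took 79.2% of a sum of 595 ± 68.8 in SUM44F, 74.4% of 680 ± 52.3 in LTED-A (n = 2), 81.8% of 800 ± 35.1 in LTED-B and 78.1% of 675 ± 22.1 in SUM44PE. IGFBP4 went from 2.95% of the sum in SUM44F to 8.32% in LTED-A and 6.9% in LTED-B. Differences between the sums of SUM44 groups were not tested against each other.

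**Figure D3:**
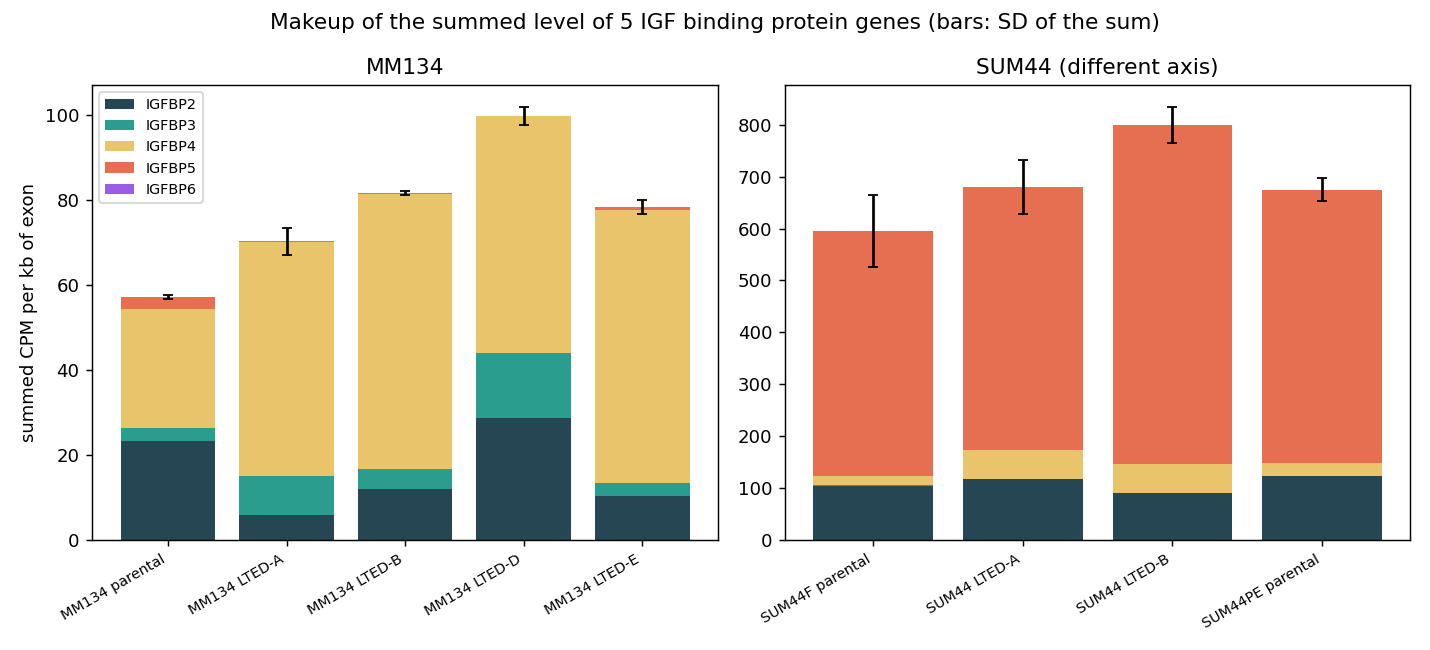
Summed normalized CPM per kb of exon of 5 IGF binding protein genes by group, stacked by gene, with the SD of the sum as bars (MM134 left, SUM44 right, on different axes that start at 0). IGFBP4 filled 48.9% of the MM134 parental bar and 82% of the LTED-E bar, and IGFBP5 filled 74.4% to 81.8% of each SUM44 bar.

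IGF1R (ENSG00000140443; chr15:98648539-98964530, plus strand, hg38), the receptor for IGF1 and IGF2, was lower in all 4 MM134 variants and DE in 3 of them. MM134 parental samples had 140, 136 and 118 normalized CPM. LTED-A had 51, 53.9 and 53.5, LTED-D 73.9, 67.1 and 73.4, LTED-B 86.8, 80.7 and 87, and LTED-E 108, 101 and 113. All variant samples were below the parental ones, LTED-E by the least.

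As log2 fold changes, IGF1R was at -1.32 ± 0.06 in LTED-A, -0.87 ± 0.06 in LTED-D and -0.63 ± 0.06 in LTED-B (edgeR adjusted p 3.71e-13, 2.47e-10 and 2.15e-08). In LTED-E it was -0.28 ± 0.06 (adjusted p 0.000268), under the 1.5-fold minimum. The call in LTED-B was lost without MM134 parental replicate 1 (-0.58, below the fold minimum). Without the 3 libraries with LUM counts the 4 values were -1.39, -0.70, -0.89 and -0.35 for LTED-A, -B, -D and -E, with the same calls.

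In SUM44F cells IGF1R stood at 132, 128 and 132 normalized CPM, within the range of the MM134 parental cells (difference -0.01, -0.24 to 0.23). SUM44 LTED-A held 316 in replicate 1 and 180 in the mean of replicates 2 and 3, and LTED-B 162, 170 and 150. Both variants lay above SUM44F, LTED-A with a wide gap between its samples. On the log2 scale IGF1R differed by 0.93 ± 0.18 for LTED-A (edgeR adjusted p 0.00208) and 0.30 ± 0.16 in LTED-B (adjusted p 0.159), neither DE. DESeq2 called LTED-A at 0.82 (adjusted p 9.99e-07).

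INSR (ENSG00000171105; chr19:7112255-7294414, minus strand, hg38), the insulin receptor, was higher in all 4 MM134 variants and DE in 3 of them (LTED-A, -D and -E). MM134 parental samples had 91.2, 91.6 and 91 normalized CPM. LTED-A had 174, 172 and 175, LTED-E 184, 168 and 178, LTED-D 154, 146 and 150, and LTED-B 126, 125 and 132. Parental and variant samples did not overlap.

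INSR rose by a log2 fold of 0.92 in LTED-A, 0.73 in LTED-D and 0.96 in LTED-E, each ± 0.03 and DE (edgeR adjusted p 2.23e-14, 1.15e-12 and 1.32e-14). In LTED-B it was 0.49 ± 0.03 (adjusted p 4.02e-10), a 1.4-fold change under the minimum. In SUM44, INSR differed from SUM44F by -0.09 (-0.27 to 0.08) in LTED-A and by 0.06 (-0.09 to 0.22) in LTED-B, and the samples overlapped between 148 and 181 normalized CPM.

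The ratio of INSR to IGF1R RNA, both per kb of exon, put these changes together. It was 0.899 ± 0.0825 in MM134 parental cells, where no sample exceeded 0.992. LTED-A had 4.24 ± 0.143, LTED-D 2.71 ± 0.0911, LTED-E 2.12 ± 0.0802 and LTED-B 1.94 ± 0.0647 (SD, n = 3 each). In SUM44 the ratio was 1.66 ± 0.114 in SUM44F, 0.68 and 1.06 in the samples of LTED-A, 1.41 ± 0.0342 in LTED-B and 1.31 ± 0.056 in SUM44PE. It was higher than in MM134 parental cells in all 12 MM134 LTED samples and lower than in SUM44F in all 5 SUM44 LTED samples. Against SUM44PE, whose samples had 1.25 to 1.37, the LTED-B samples (1.37 to 1.44) were not lower. No test was run on the ratio itself.

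**Figure D4:**
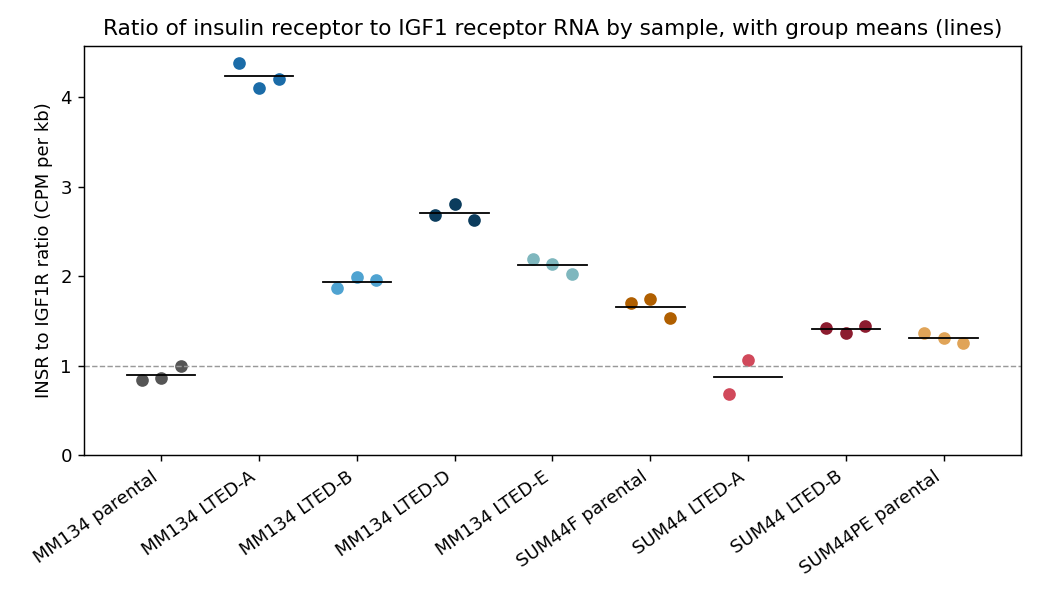
Ratio of INSR to IGF1R RNA (both in CPM per kb of exon, axis from 0) by sample, with group means as lines and a dashed line at 1. MM134 parental samples lay below 1 and the MM134 LTED samples between 1.87 and 4.39, while the SUM44 LTED samples, at 0.68 to 1.44, lay below the SUM44F samples at 1.53 to 1.75.

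IGF2R (ENSG00000197081; chr6:159969082-160113507, plus strand, hg38), which clears IGF2 from the cell surface, moved little in MM134. On the log2 scale IGF2R differed by 0.51, 0.22, 0.21 and 0.27 in LTED-A, -B, -D and -E, each ± 0.03. All 4 had an edgeR adjusted p of at most 3.51e-05 and stayed under the 1.5-fold minimum. The levels were 156 to 170 normalized CPM in MM134 parental samples and 178 to 240 in the variant samples.

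In SUM44 the SUM44F samples had 194, 197 and 166 normalized CPM of IGF2R, LTED-A 221 and 168, and LTED-B 118, 122 and 111. LTED-B lay below the others. Log2 fold changes were 0.07 ± 0.12 in LTED-A and -0.66 ± 0.11 in LTED-B (edgeR adjusted p 0.000557, DE). The LTED-B call was lost in 5 of the fits that left out 1 library, those without SUM44F parental replicate 1 or 2 or any 1 LTED-B library (-0.61 to -0.69, adjusted p 0.00232 to 0.00481). Of the 40 tested protein-coding genes nearest to IGF2R on chromosome 6 (20 on each side), 15 were DE and lower in LTED-B. Their median log2 fold change was -0.59. The background of lower DE genes, 8.57%, is over all genes tested, coding or not. Copy number was not measured, and its part in this was not tested. For the other 9 genes the neighbors' median in LTED-B lay between -0.31 and 0.24. The lowest was that of IRS1, where 10 of 40 neighbors were DE and lower and 3 higher. In LTED-A, 11 of the 40 neighbors of IRS1 were DE and lower and 2 higher, with a median of -0.23, beside 7.28% lower over all genes tested.

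IGF2 (ENSG00000167244; chr11:2129112-2158391, minus strand, hg38), the ligand that is imprinted in most tissues, was found mainly in SUM44F cells. These had 970, 273 and 347 counts, or 21, 5.33 and 3.86 normalized CPM. SUM44PE samples had 1.19, 1.77 and 1.18, LTED-A 0.321 and 0.193, and LTED-B 0.663, 0.791 and 0.644. Every sample of the other SUM44 groups was below every SUM44F sample.

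The log2 fold change of IGF2 was -5.39 ± 0.80 in SUM44 LTED-A and -3.85 ± 0.61 in LTED-B (edgeR adjusted p 0.000401 and 0.000442). SUM44F parental replicate 1 carried the largest part of the count, and without it the values were -4.35 ± 0.23 and -2.71 ± 0.21 (adjusted p 3.35e-07 and 5.23e-06), with LTED-A below LTED-B by 1.63 (adjusted p 0.000633). The LTED-B call was lost when any 1 LTED-B library or LTED-A replicate 1 was left out, at -3.77 to -3.94 and an adjusted p of 0.00105 to 0.00371.

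MM134 libraries had 2 to 30 counts of IGF2, and the highest were in the libraries with LUM counts: 18 in MM134 parental replicate 3 and 30 in LTED-D replicate 2. Of the other genes of the pathway list, IGFBP1, a binding protein made chiefly by liver and decidua, showed the same 3 libraries, with 2278 counts in SUM44F parental replicate 1, 69 in MM134 parental replicate 3 and 100 in LTED-D replicate 2, beside at most 10 in any other. IGF1 had 226 counts and H19, the imprinted neighbor of IGF2, 1155 counts in SUM44F parental replicate 1. The part of the stromal signal in the IGF2 level was not tested, and without that library IGF2 was still DE and lower in both SUM44 variants, as given above. Reads of the read-through gene INS-IGF2 (at most 5 counts) and of IGF2-AS (at most 16) were counted apart from IGF2.

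**Figure D5:**
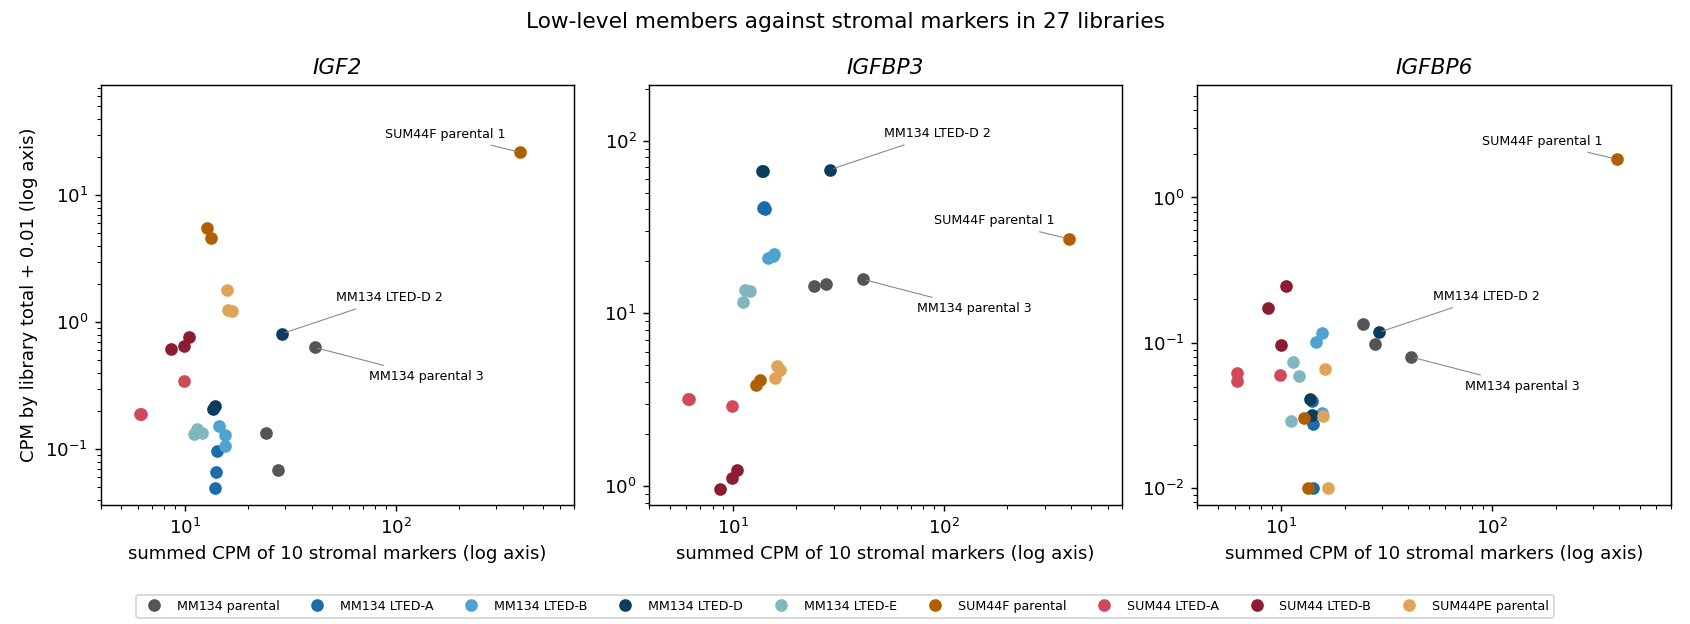
CPM of IGF2, IGFBP3 and IGFBP6 (library totals, 0.01 added, log axes) against the summed CPM of 10 stromal markers in 27 libraries, colored by group. SUM44F parental replicate 1 stood apart at 390 CPM of stromal markers and was the highest library for IGF2 and IGFBP6, while IGFBP3 was highest in the 3 LTED-D libraries of MM134.

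Over the 6 pairs of MM134 variants, the 8 tested genes gave 21 DE calls. By pair, 4 were DE between LTED-A and LTED-B (7.06% of all genes), 2 between LTED-A and LTED-D (9.88%), 5 between LTED-A and LTED-E (7.84%), 2 between LTED-B and LTED-D (7.40%), 3 between LTED-B and LTED-E (9.78%) and 5 between LTED-D and LTED-E (11.6%). IGFBP3 gave 6 of the 21 and IGFBP2 5, while IGF2R, INSR and IGFBP4 were DE in no pair. The largest pair differences in size of these 3 were 0.30 for IGF2R, 0.47 for INSR and 0.24 for IGFBP4 on the log2 scale, most of them past the p but not the fold.

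SUM44PE and SUM44F, which differ by 3 months of culture in another medium, were compared as cultures without long deprivation. The study does not say whether SUM44PE cells also had the 3 days of hormone deprivation. A difference in that step could not be told apart from that of the medium. IGF1R and INSR were DE among the 10, beside 5.57% of 27457 genes. IGF1R was at 250, 270 and 274 normalized CPM in SUM44PE and 1.01 ± 0.14 above SUM44F on the log2 scale (edgeR adjusted p 0.000228), a call that was lost, at 0.99 to 1.06, when any 1 of these 6 libraries was left out. INSR, at 266, 274 and 267 normalized CPM, exceeded SUM44F by 0.67 ± 0.07 (adjusted p 1.52e-05). IRS1 differed by 0.21 (0.06 to 0.36) and IGFBP4 by 0.44 (0.14 to 0.75), neither DE. The same held for IGF2R (0.29), IGFBP2 (0.24), IGFBP5 (0.15), IGFBP6 (-4.42 ± 1.76) and IGFBP3, which was at -1.30 ± 0.59 with all libraries and at 0.33 ± 0.14 without SUM44F parental replicate 1. The IGFBP6 value rests on that library, with 81 counts beside 1 and 0 in the other SUM44F libraries, and was not obtained without it. IGF2 was lower in SUM44PE by 2.86 ± 0.53 without reaching the threshold (adjusted p 0.00162), and without SUM44F parental replicate 1 by 1.72 ± 0.21 and DE (adjusted p 8.73e-05).

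MM134 parental and SUM44F cells differed in 6 of the 10 genes, beside 38.1% of 29200 genes. IRS1 (0.73 ± 0.06) and IGFBP4 (0.66 ± 0.12) were higher in MM134. INSR (-0.90 ± 0.05), IGFBP2 (-2.16 ± 0.07), IGFBP5 (-7.40 ± 0.15) and IGF2 (-5.40 ± 0.65) were lower. The IGF2 difference was -4.27 without SUM44F parental replicate 1, -6.89 without MM134 parental replicate 3 and -5.76 without the 3 libraries with LUM counts, DE each time. IGF2R (-0.21) and IGFBP6 (-2.65 ± 1.18, edgeR adjusted p 0.0547) were not DE, nor was IGF1R. The IGFBP6 value rests on the 81 counts of SUM44F parental replicate 1, beside 1 and 0 in the other SUM44F libraries. No value was obtained without that library. IGFBP3 differed by 0.35 ± 0.44 and was not DE, but without SUM44F parental replicate 1 it was higher in MM134 by 1.94 ± 0.09 (edgeR adjusted p 5.27e-15). IGFBP4 was not DE without SUM44F parental replicate 3 (0.52, adjusted p 0.00107).

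The mean change of the MM134 variants and that of the SUM44 variants differed in 7 of the 10 genes, beside 20.9% of 29200 genes (interaction in 1 fit of both lines). IRS1 fell in both lines and more in SUM44, by 1.85 ± 0.08 on the log2 scale (means -2.21 and -4.07, edgeR adjusted p 6.18e-15). IGF1R (means -0.78 and 0.61), IGFBP5 (-4.17 and 0.29) and IGFBP2 (-0.95 and -0.01) changed more to the lower side in MM134. INSR (0.78 and -0.01), IGF2R (0.30 and -0.30) and IGFBP3 (1.15 and -2.54) changed more to the higher side there. Without SUM44F parental replicate 1 the difference between lines was 2.04 in place of 3.63 for IGFBP3. That of IGF2 was 3.84 and just missed the threshold (edgeR adjusted p 0.00111). It ran from 2.78 without that library to 5.36 without MM134 parental replicate 3, and was DE in 18 of 33 alternatives, these among them. IGFBP6 had 1.51 and was not DE, a value that rests on the 81 counts of SUM44F parental replicate 1 and was not obtained without it. IGFBP4 rose in both, with means of 1.10 and 1.67 and a difference of -0.58 ± 0.14 that missed the threshold (adjusted p 0.00119) and passed it without SUM44F parental replicate 1 (-0.70, adjusted p 0.000237).

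Beyond the 10 genes, 41 other genes of the IGF and insulin pathway were examined by role, and 35 of them had enough counts in MM134 and 34 in SUM44. Of these, 4 rose and 14 fell in MM134 LTED-A, 3 and 9 in variant B, 7 and 7 in variant D, and 6 and 10 in variant E. For SUM44 the counts were 5 and 6 in LTED-A and 7 and 6 in variant B. The share of the tested list that was DE was 51.4%, 34.3%, 40% and 45.7% in the MM134 variants, beside 20.3%, 15.9%, 17.6% and 19% of all genes, and 32.4% and 38.2% in the SUM44 variants, beside 13.7% and 17.3%. Its median log2 fold change lay between -0.45 and -0.03.

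GRB10, an adaptor that binds both receptors and damps their signal, fell in all 6 variants. Its level went from 310 ± 8.19 normalized CPM in MM134 parental cells to 50.8 ± 1.4, 101 ± 1.59, 128 ± 0.744 and 74.3 ± 1.06 in LTED-A, -B, -D and -E, and from 60.6 ± 4.17 in SUM44F to 15.3 ± 0.22 and 25.7 ± 0.236. The related adaptor GRB14, an inhibitor of the insulin receptor, rose in the 4 MM134 variants, by 2.18 to 3.39 on the log2 scale, and differed by 0.10 and -0.20 in SUM44, where it was not DE.

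Other inhibitors at the receptor moved by line. ENPP1, a membrane protein that impairs insulin receptor signaling, rose by 1.03 to 1.41 in the MM134 variants, and in SUM44 by 2.81 in LTED-B, where LTED-A had 0.11 and was not DE. SOCS3, a suppressor of cytokine and insulin signaling, fell in the MM134 variants, with log2 fold changes of -2.43 to -4.56, and had -0.58 and 0.79 in SUM44, not DE. In SUM44 the phosphatase gene PTPN1 rose by 1.31 and 0.81 in LTED-A and LTED-B and SOCS2 by 1.56 and 1.92, while SOCS1 fell, with -1.57 and -2.10. The substrate gene IRS4 rose by 2.65 and 2.28 in these variants, from 0.313 to 1.94 and 1.48 normalized CPM, but SUM44PE parental cells, at 2.05, were also above SUM44F (2.74, DE). The orphan receptor gene INSRR stood at 7.08 ± 0.453 in SUM44F and at 0.0211 and 0.0502 in LTED-A and LTED-B, DE in both. SUM44PE parental cells, at 1.58 ± 0.122, were also below SUM44F. In MM134, the adaptor gene SHC3 fell in the 4 variants (-1.25 to -1.61), and SH2B2, an adaptor, fell in LTED-A, -B and -E (-0.59, -0.86 and -1.03) and rose in SUM44 LTED-B (1.16).

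The list held 7 genes for proteases of binding proteins and their inhibitors. ADAM28, ADAMTS1, STC1 and STC2 were DE in all 4 MM134 variants, PAPPA was DE in 1 MM134 and 1 SUM44 variant (lower in both), and PAPPA2 and HTRA1, which were tested in MM134 alone, were DE in no variant. ADAM28, a protease known to cut IGFBP3, rose from 1.64 ± 0.249 normalized CPM in MM134 parental cells to between 30.7 and 61.8 in the variants, a log2 fold change of 4.23 to 5.26. ADAMTS1, another protease, fell there (-2.77 to -2.96), and its SUM44 values of -3.75 and -3.74 were not DE and rest on SUM44F samples with 462, 65 and 138 counts, the most in replicate 1, the library with stromal counts. STC1 and STC2 encode stanniocalcins, known to inhibit the IGFBP4 protease PAPPA. STC1 fell in all 6 variants, with -2.35 to -3.20 in MM134 and -1.59 and -2.60 in SUM44. STC2 fell in the 4 MM134 variants, most in LTED-E (-4.21), and rose by 2.88 and 2.53 in SUM44, and its change differed between the lines by -5.01 ± 0.08 (edgeR adjusted p 2.95e-22). SUM44PE parental cells also held more STC2 than SUM44F, at 372 ± 21.3 against 73.5 ± 6.23 normalized CPM (2.33 ± 0.09, DE), beside 540 ± 26.8 and 426 ± 12.9 in the variants.

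Of the 12235 protein-coding genes above 5 CPM in some group, those whose group means of log2(CPM + 1) followed a member most closely over the 9 groups were VANGL1 for IGF1R (Pearson r 0.959), NUMB for INSR (0.949), SH2D3A for IGF2R (0.913) and RCBTB2 for IRS1 (0.973). For the binding proteins they were KDM2B for IGFBP2 (0.987), MYLK for IGFBP3 (0.982), URI1 for IGFBP4 (0.982) and EFNA1 for IGFBP5 (0.995). These correlations are a description over 9 points that share libraries. For IGFBP2 and IGFBP5 they rest mostly on the gap between the cell lines. That gap also enters those of IGF1R and IGFBP3, which correlated with IGFBP5 at 0.87 and -0.90. With a pseudocount of 0.1, each of these 8 genes was still among the 3 closest to its member.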

How the data were processed

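Total RNA was sequenced from 27 libraries in 9 groups (TruSeq stranded kit). The deposited values are estimated counts per gene, which the authors made with Salmon 0.6.0 (default settings, hg38, Ensembl 82, per the study's methods and the submitters' processing notes); read trimming and the strand setting are not given in the sources used here, so genes that overlap a member could share reads with it (CHP1P2 in IGF2R, at most 263 counts). Estimated counts were rounded to whole numbers. The 10 genes and the gene lists were chosen with earlier results of these data known. Of 60619 genes, 56434 carried a symbol and exon length from GENCODE 44.

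Libraries held 28583554 to 134882175 counts (median 44018412), and their number limits the precision of each comparison. Groups follow the sample titles. Replicates 2 and 3 of SUM44 LTED-A stayed below sampling noise (the other 26 of 27 replicate pairs had a chi-square of 2.35 to 58.3 per degree of freedom), and their mean was used as 1 sample. Low counts were filtered with filterByExpr, libraries scaled by TMM, and groups compared with the quasi-likelihood test of edgeR 4.0.16 (R 4.3.3; limma 3.58.1), two-sided, with Benjamini-Hochberg adjustment over all genes of a fit. DE meant more than 1.5-fold and an adjusted p under 0.001, as in the study. MM134 groups shared 1 fit, SUM44F and its variants another; SUM44PE was compared in a fit of the 4 SUM44 groups, and the lines in a fit of the MM134 and SUM44 groups together. Intervals are 2 SE either side. On simulated data with 200 changed genes, 59 of 97 genes changed 2-fold and 84 of 98 changed 4-fold were recovered in the MM134 LTED-A comparison (25414 genes, 0 false calls), and 24 of 99 and 52 of 96 in that of SUM44 LTED-A (25941 genes, 2 false calls).

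The 10 genes are named whatever their result, except that the comparisons between variants give those that were DE and a few others. Pathway genes are named where DE in the same direction in at least 3 MM134 variants or in both SUM44 variants, and genes of like pattern by the highest Pearson r over group means of log2(CPM + 1). Alternatives were RLE and upper quartile scaling, other filters, DESeq2 1.42.0, other thresholds, a replicate block, other sets of groups in a fit, leaving out each library, and, chosen after seeing the data, leaving out the 3 libraries with more than 20 LUM counts together. Promoters were read from RefSeq tables on GRCh38.p14 (9 of 10 genes matched).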

Additional observations from a re-analysis of the deposited data

Results flagged for a closer look

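For 7 genes the change under long deprivation, averaged over the variants of a line, differed between MM134 and SUM44 by the interaction test in edgeR (Benjamini-Hochberg adjusted p). The difference in log2 fold change, MM134 minus SUM44, was -4.47 for IGFBP5 (adjusted p 1.33e-15), -1.39 for IGF1R (2.37e-08) and -0.95 for IGFBP2 (1.94e-09). It was 1.85 for IRS1 (6.18e-15), 0.78 for INSR (6.29e-11), 0.59 for IGF2R (2.99e-06) and 3.63 for IGFBP3 (1.73e-05). Without SUM44F parental replicate 1, the IGFBP3 difference was 2.04 (adjusted p 8.32e-14). Without the 3 libraries with LUM counts, that of IGF2R was 0.55 and under the 1.5-fold minimum.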

How the results depend on the processing

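Of 3473 recomputed values of 140 fold changes of the 10 genes, 3285 kept their direction and their side of the threshold, 60 lost a call and 75 gained one. Another 53 turned sign with no call in either fit, and 6 of these had a reported size over 0.5: IGFBP6 in both SUM44 variants and IGFBP3 in SUM44PE, without SUM44F parental replicate 1 or without the 3 LUM libraries. A 2-fold minimum left 4 genes in the difference between lines, 3 in MM134 LTED-B, 3 between the parental lines and 1 in SUM44PE. It also took away the calls of INSR in MM134 LTED-A, -D and -E, of IGFBP4 in LTED-A and of IGF1R in LTED-D. The call of IGF2R in SUM44 LTED-B and some calls between MM134 variants were lost as well. Without a minimum the 6 pairs of MM134 variants gave 37 calls, and the variants against parental cells gained calls too (IGF2R in all 4). Between the SUM44 variants, 1 gene became 3 at an adjusted p under 0.05 or without the 3 LUM libraries, and 2 with at least 10 counts in every sample, no filter, DESeq2, RLE or upper quartile factors, a replicate block, or the near-identical replicates kept apart. Upper quartile factors left 1 gene in SUM44PE. The cause was not tested. DESeq2 gave no adjusted p for IGFBP3 in the 6 comparisons with SUM44 cells.

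Leaving out 1 library at a time gave 7 genes each time for MM134 LTED-A, 5 to 6 for variant B, 6 each time for variant D and 5 each time for variant E, 3 each time for SUM44 LTED-A, 2 to 4 for SUM44 variant B, 1 to 3 between the SUM44 variants, 1 to 2 in SUM44PE, 5 to 7 between the parental lines, 7 to 9 in the difference between lines, and 19 to 21 over the MM134 pairs. No pairing by replicate number was seen: deviations of same-numbered samples correlated at -0.498 to 0.366 in MM134 and -0.215 to 0.159 in SUM44. Those of samples with different numbers correlated at -0.512 to 0.554 and -0.2 to 0.215. Such ranges alone cannot exclude a pairing. The replicate block moved no other count of calls, with 7, 6, 6 and 5 genes in the MM134 variants. Low counts limit IGFBP6 and, in MM134, IGF2.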
